A study of Mus musculus with 12 samples.

Results

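The lysosomal genes, Ctsb, Ctsc, Ctsd, Ctsh, Ctsl, Ctss, Ctsz, Lamp1, Lamp2 and Lgmn, were followed through the spleen cells of lupus-prone and control mice, from single-cell RNA sequencing. They were chosen by name as cathepsins and lysosome membrane genes, with earlier results of these data known. All 10 were found among the 16094 genes of the expression table. The 4 mice were male. The 2 WT mice were C57BL/6 animals, with a deposited age of 14.4, and the 2 SLE.yaa mice were of the congenic strain B6.Sle1yaa, with a deposited age of 14.9. No unit is stated for the age, and it differs with the group. B6.Sle1yaa mice carry Sle1, a chromosome 1 segment that predisposes to autoimmunity, together with Yaa, a Y chromosome onto which a piece of the X chromosome with the RNA sensor gene Tlr7 has moved. The group names stand under a label tag that speaks of chimeras, with no further word on how the animals were made. Leukocytes of the spleen, which bear CD45 on their surface, were enriched with magnetic beads in both groups and captured in droplets, 1 library per mouse. Levels are the mean over the cells of a type in a mouse, scaled to a sum of 1000000 over all genes (vpm), and 4 values in a row are those of WT 1, WT 2, SLE.yaa 1 and SLE.yaa 2. A change is the difference SLE.yaa minus WT on the scale log2(vpm + 10) with its standard error, tested with limma over all genes of a cell type at a two-sided adjusted p under 0.05 and with n = 2 mice per group. The pseudocount of 10 understates the change of genes with low levels.

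The libraries held 5497, 5697, 4961 and 6130 cells, with 3467, 3670, 4695 and 4050 UMIs in the median cell and 21793635 to 28877299 UMIs in all. Of the cell barcodes, 254 occurred in more than 1 library, and cells were matched to mice by library and barcode together. Of 12 cell types that the authors annotated, 9 had at least 20 cells in every mouse and were tested. Plasma cells, plasmacytoid dendritic cells (pDC) and basophils (Baso) did not, and their values are described without a test. The label Mac stands for cells with high levels of monocyte markers, since Lyz2 was at 14976, 16521, 8900.4 and 7651 vpm there. The macrophage markers C1qa, C1qb and C1qc stayed at or under 16.1 vpm in Mac in every mouse. Other macrophage markers were present in Mac, where all 10 on that list summed to 1127, 2342, 1891 and 1561 vpm. Summed monocyte markers were at 22876, 23059, 14986 and 13716 vpm there. In the cells labelled DC, the conventional dendritic cell markers Flt3 (205, 264, 44.9 and 72.5 vpm) and Zbtb46 (84.3, 97.4, 28.8 and 34.1) were present but lower in SLE.yaa, and macrophage markers were far higher there, as given beside the results.

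Lysosomes are the acid compartments in which cells take proteins apart, and in immune cells they also set which peptides reach MHC class II molecules and whether endosomal Toll-like receptors become active. Most cathepsins are cysteine proteases made as inactive precursors, trimmed at low pH and held in check by cystatins and stefins. Cathepsin S, and cathepsin L in some tissues, cut the invariant chain Cd74 that blocks the MHC class II groove, and cathepsins together with legumain trim Toll-like receptors 7 and 9.

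By role, the endopeptidases were Ctsb (chromosome 14, 63122462 to 63145923), the cysteine protease cathepsin B; Ctsl (chromosome 13, 64361890 to 64370772), cathepsin L; Ctss (chromosome 3, 95526786 to 95556405), cathepsin S; and Ctsd (chromosome 7, 142375910 to 142387827), an aspartic rather than a cysteine protease. The exopeptidases were Ctsc (chromosome 7, 88278024 to 88315861), the dipeptidyl peptidase that activates granzymes and neutrophil serine proteases, Ctsh (chromosome 9, 90054267 to 90076095), mainly an aminopeptidase, and Ctsz (chromosome 2, 174427494 to 174439039), a carboxypeptidase. Lgmn (chromosome 12, 102394082 to 102439728) encodes legumain, an asparaginyl endopeptidase that also processes cathepsins. Lamp1 (chromosome 8, 13159161 to 13175338) and Lamp2 (chromosome X, 38399647 to 38456460) encode the heavily glycosylated proteins that line the lysosomal membrane. Positions are those of GRCm38.p6, and all 10 genes are protein-coding.

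Many lysosomal genes carry the letters CACGTG near their start, the E-box core of the motif bound by the transcription factor TFEB and its relatives, whose full palindrome has GT before these letters and AC after them. RefSeq promoter windows of GRCm38.p6, taken as the 250 bases before the start, were found for 8 of the 10 genes (9 windows, since Lgmn has 2), and not for Ctsb and Ctsh. On either strand, CACGTG lay in the windows of 4 of the 8 genes, against 6.02% of 32851 mouse promoter windows of that length. It occurred 4 times in Lamp1, 61, 45, 28 and 15 bases before the start, 2 times in Ctsd, 245 and 98 bases before it, 1 time in Ctsl (236 bases) and 1 time in 1 of the Lgmn windows (49 bases). The full palindrome, which contains CACGTG, lay in none of the 9 windows and in 0.240% of all windows. The letters GAAA, NN and GAAA in a row, where N is any base, the spacing of the element bound by interferon regulatory factors and a search added after the windows had been read, lay in Ctss (21 bases before the start) and Lamp1 (135 bases, on the opposite strand), against 2.98% of all windows. Matches are letters only and show no binding. The windows of Ctsc and Ctsl, and the Lgmn window with the match, lie before a RefSeq transcript start that is inside the annotated gene. Shown are the windows with more than 1 CACGTG and the window of Ctss, read 5′ to 3′ on the strand of the gene and ending at the base before the start, with the matched letters in capitals. The Ctsd window is chr7:142387828-142388077 on the minus strand, the Lamp1 window chr8:13158911-13159160 on the plus strand and the Ctss window chr3:95526536-95526785 on the plus strand.
Ctsd: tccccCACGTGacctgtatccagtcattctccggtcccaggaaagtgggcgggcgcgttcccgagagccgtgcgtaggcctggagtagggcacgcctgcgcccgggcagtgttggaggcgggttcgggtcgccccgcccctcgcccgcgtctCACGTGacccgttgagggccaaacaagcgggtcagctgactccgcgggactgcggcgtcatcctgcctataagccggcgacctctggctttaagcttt
Lamp1: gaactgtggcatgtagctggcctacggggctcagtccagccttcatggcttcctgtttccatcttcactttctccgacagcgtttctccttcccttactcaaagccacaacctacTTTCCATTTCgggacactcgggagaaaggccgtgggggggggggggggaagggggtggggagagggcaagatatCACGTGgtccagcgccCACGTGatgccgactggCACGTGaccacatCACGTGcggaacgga
Ctss: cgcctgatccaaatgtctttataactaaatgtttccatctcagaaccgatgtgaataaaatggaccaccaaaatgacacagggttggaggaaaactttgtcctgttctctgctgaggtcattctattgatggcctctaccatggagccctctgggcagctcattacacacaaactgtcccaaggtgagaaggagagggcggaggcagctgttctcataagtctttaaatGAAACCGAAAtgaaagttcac

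To describe where each gene is normally read out, its level was compared across the 9 tested types of the WT mice, here with scaling to the sum alone so that types share 1 scale. No test was made. Of the 10 genes, 6 had their highest mean WT level in Mac, 3 in DC and 1 in NK cells. Ctsb was at 1347 and 1592 vpm in Mac and at 607 and 898 in DC, and between 54.9 and 122 in the other 7 types. Ctss reached 2072 and 1684 in Mac, followed by DC (745 and 790) and B-ISG (805.5 and 699), B cells with an interferon signature, and the ranges of the latter types overlapped. Lamp1 stood at 710 and 817 in Mac and at 348 and 269 in DC. From B-ISG down to B-early cells each type overlapped its neighbour in the order of Lamp1 levels, and only Mac and DC stood above a common range of 109 to 162 vpm in the remaining types. Lamp2 was highest in Mac (199 and 174) and next in PMN (121 and 112), the neutrophils, ahead of DC (65.6 and 64.7).

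Ctsd had another order. It was highest in NK cells, at 957 and 862 vpm, then in PMN (455 and 482), and Mac held rank 6 of 9 with 96.1 and 127. B, B-ISG and B-early cells had 33.1 to 42.3 vpm and overlapped. Ctsh, Ctsz and Lgmn were read out in antigen-presenting cells. Ctsh was at 676 and 632 in DC, 378 and 367 in Mac and 338 and 323 in B cells, against 19.3 or less in CD4, CD8 and NK cells. Ctsz was at 584 and 521 in DC, 440 and 414 in Mac and 361 and 330.0 in B-early cells, the early B cells. Lgmn did not differ beyond its spread between DC (138 and 172) and Mac (113 and 193), and was at most 2.36 in CD8 and NK cells.

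Ctsc was spread over more types, with Mac (333 and 248) overlapping B-ISG (286 and 225), and NK, B-early, B and DC following at 112 to 237 with overlapping ranges. In PMN it was at 10.7 and 13.7, the lowest of the 9 types. Ctsl was low in all of them, with 38.7 and 33.6 in Mac, 16.3 and 19.7 in CD8 and 10.8 and 11.7 in CD4 T cells. Among the 5 lowest types and DC, where it was at 6.56 and 10.8, neighbours overlapped. Some levels below 10 vpm rest on a handful of cells.

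**Figure D1:**
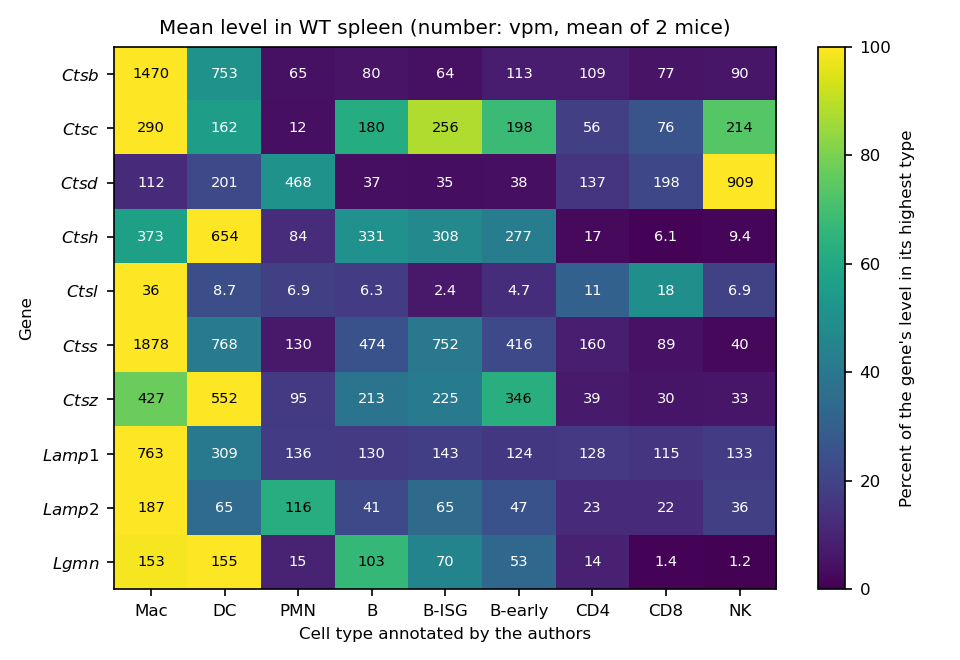
Heatmap of the mean WT level of each gene (rows) in the 9 tested cell types (columns), in vpm scaled to the sum alone, n = 2 mice. Numbers are levels and colour is the percent of the gene's level in its highest type; 6 genes peak in Mac, 3 in DC, and Ctsd in NK cells.

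Across the 9 types the WT means of some of these genes ran together, which is given as a description over types from shared libraries. Ctsh and Ctsz had a Pearson r of 0.98, Ctsh and Lgmn 0.96, Ctss and Lgmn 0.95, and Ctsb and Lamp1 0.95, on log2(vpm + 10). Ctsd ran against Ctss (−0.67) and Lgmn (−0.62). Among 10019 other genes, the 2 most like each gene were Eml6 and Ctnnd1 for Ctsb (both r = 0.99), Mprip and Pggt1b for Ctsc (both 0.95), Lta4h and Cd82 for Ctsd (both 0.98), H2-Ab1 and Ctsz for Ctsh (both 0.98), and Cyth3 (0.97) and Mvd (0.95) for Ctsl. For Ctss they were Slc31a1 (0.99) and Nlrc4 (0.95), for Ctsz Epn1 (0.99) and Ctsh (0.98), for Lamp1 Dock1 and Lrp1 (both 0.995), for Lamp2 Xbp1 and Sh3glb1 (both 0.96), and for Lgmn H2-DMb1 (0.97) and Ctsh (0.96). H2-Ab1 encodes a chain of an MHC class II molecule and H2-DMb1 a chain of H2-M, which helps load peptides onto it.

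In the spleen as a whole, all 10 genes had higher means in both SLE.yaa mice than in both WT mice, and 6 of 10 passed the test, with 7.87% of all tested genes called in this comparison. The share of all genes with both SLE.yaa mice above both WT mice is not given. The median log2 change of the 10 was 0.60, against −0.02 over all 8544 genes tested. Ctsb changed most. It rose from 185 and 147 vpm in WT to 521 and 643 in SLE.yaa, a log2 change of 1.75 ± 0.159 (limma adjusted p = 0.00312). Lgmn rose from 72.4 and 74.1 to 135 and 124 (0.75 ± 0.099, adjusted p = 0.0110), and Ctsd from 106 and 102 to 175 and 178 (0.71 ± 0.097, adjusted p = 0.0118). The membrane genes rose too, Lamp2 by 0.71 (adjusted p = 0.0298) and Lamp1 by 0.57 (adjusted p = 0.0443), and so did Ctsz by 0.50 (adjusted p = 0.0499). With 1 mouse left out, Ctsz and Lamp1 lost their calls without WT 1 (limma adjusted p = 0.119 and 0.0650), WT 2 (0.463 and 0.315) or SLE.yaa 2 (0.0729 and 0.0635), and Lamp2 (0.0817) and Ctsd (0.0532) did without WT 2. The other 4 genes did not pass, Ctsc (150, 153, 186 and 177 vpm; adjusted p = 0.192), Ctsh (251, 224, 296 and 304; 0.135), Ctsl (15.4, 11.5, 20.02 and 22.1; 0.0833) and Ctss (509, 383, 585 and 822; 0.122).

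This whole-spleen comparison mixes how many cells of each type were present with how much each cell held. Mac made up 375, 169, 550 and 1485 cells and DC 77, 74, 260 and 290, and of the 9 types tested alone these had the highest Ctsb and Lamp1. With every mouse set to 1 common mix of types, 3 genes passed, with 6.8% of all genes called, Ctsb (log2 change 0.61, adjusted p = 0.00632), Ctsd (0.53, adjusted p = 0.00503) and Lgmn (0.44, adjusted p = 0.0229), and Lamp1 had −0.06 (adjusted p = 0.870). Without Mac, DC, PMN and plasma cells, Ctsb (0.77, adjusted p = 0.000946) and Lgmn (0.42, adjusted p = 0.0294) passed, with 6.92% of all genes called. The related lists were read in the whole-spleen comparison, with the mix of types left as it was. Of their 97 tested genes 20 passed, with 7.87% of all genes called. All 3 called cystatins and stefins of 4 tested were higher (Stfa2l1, Cst7 and Cst3). Of 35 other soluble lysosomal genes 7 were higher (lowest adjusted p in Acp2, Grn and Gusb). Of 18 other membrane genes 4 were higher, Slc11a1, Laptm4a, Slc15a3 and, outside the naming rule and picked after its value was seen, Cd68. None was lower in these 3 lists. Of 4 other cathepsins tested Ctsa was higher (0.64, adjusted p = 0.0203) and Ctsw lower (−0.55, adjusted p = 0.0484), and of 5 substrates Tlr7 was higher (1.30, adjusted p = 0.0107) and Gzma lower (−1.90, adjusted p = 0.00265). Of 17 subunits of the proton pump that acidifies the lysosome 2 were higher (Tcirg1 and Atp6v0a1). Of 14 sorting and transcription factors tested none passed (limma; 3 at an unadjusted p under 0.05).

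The cells annotated DC showed the widest shift. In SLE.yaa 8 of 10 genes were higher, where 12.1% of all tested genes were called in either direction, and the median log2 change was 1.69 against 0.07 over all 8832 genes. All 10 had both SLE.yaa mice above both WT mice, a count given without the share of all genes that separate so. Among the endopeptidases, Ctsl, near the floor in WT at 6.02 and 10.4 vpm, stood at 172 and 113.5 in SLE.yaa, a log2 change of 3.05 ± 0.28 (limma adjusted p = 0.000371). It met the filter through the SLE.yaa mice, and it also passed with no filter (adjusted p = 0.0261). Ctsd rose from 214 and 163.5 to 993 and 788 (2.18 ± 0.195, adjusted p = 0.000332). Ctsb rose from 557 and 870 to 3506 and 2105 (1.95 ± 0.28, adjusted p = 0.00269). Ctss rose from 683.5 and 765 to 1802 and 2141 (1.43 ± 0.17, adjusted p = 0.00120). Even the lower SLE.yaa mouse held more than the higher WT mouse for each of these 4 proteases.

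Lgmn, the asparaginyl endopeptidase, rose in DC from 126.5 and 167 vpm to 658 and 588 (log2 change 2.02 ± 0.19, limma adjusted p = 0.000371). Of the exopeptidases, Ctsc rose from 102 and 205 to 647 and 539 (1.95 ± 0.28, adjusted p = 0.00276). Ctsh, whose WT level was highest in DC among the 9 types tested alone, was at 620.3 and 612 against 803 and 911 (0.47 ± 0.16, adjusted p = 0.0995), and Ctsz at 536 and 504.5 against 763 and 639 (0.42 ± 0.17, adjusted p = 0.150). Neither passed the test. The membrane genes rose, Lamp1 from 319 and 261 to 862 and 649.5 (1.34 ± 0.19, adjusted p = 0.00278) and Lamp2 from 60.2 and 62.6 to 153 and 138 (1.12 ± 0.19, adjusted p = 0.00646). The members with a CACGTG in the windows printed above or named with them, Ctsd, Ctsl, Lamp1 and Lgmn, were among the 8 that rose, and so were Ctsc, Ctss and Lamp2, whose windows hold none. All 8 calls held with each mouse left out; with no filter on low values Ctsb (adjusted p = 0.0658) and Ctsc (adjusted p = 0.0640) did not pass, and among cells with 2000 to 5000 UMIs Lamp2 did not (adjusted p = 0.256).

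**Figure D2:**
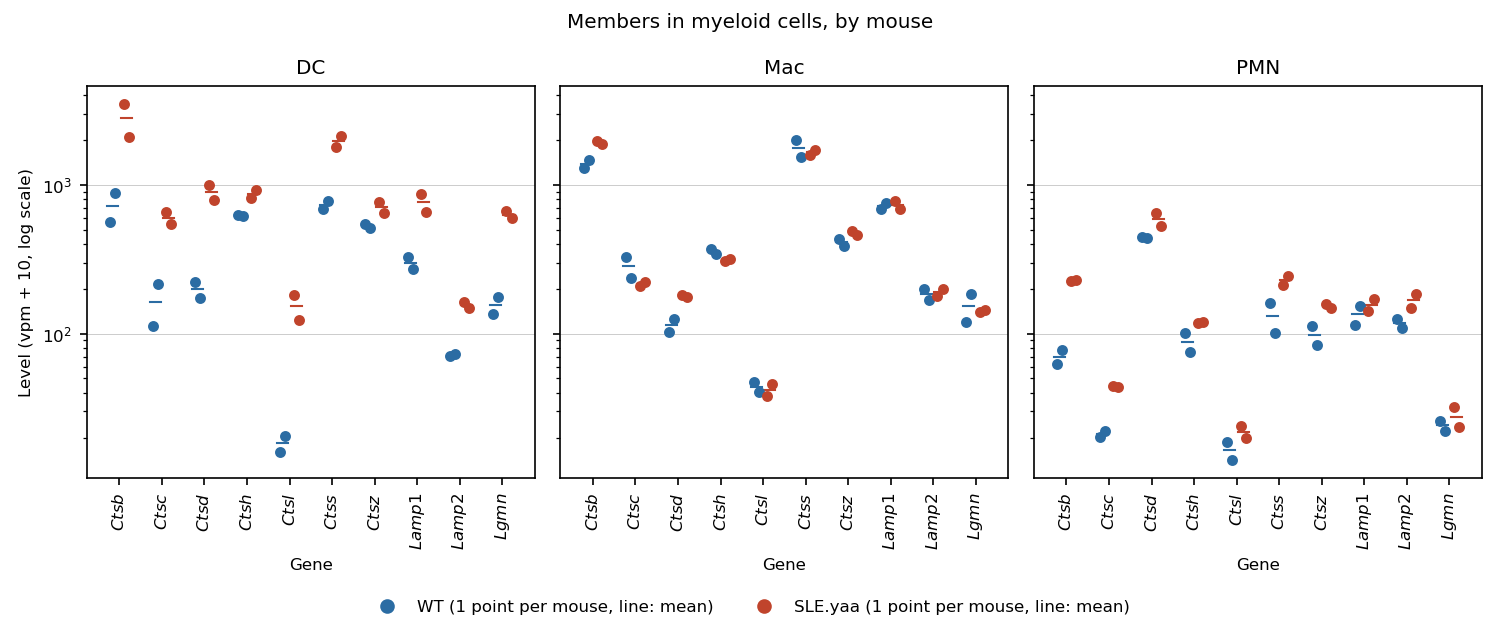
Level of each gene (vpm + 10, log axis) in cells annotated DC, Mac and PMN, 1 point per mouse, with a line at the mean of each group. In DC all 10 genes have both SLE.yaa points above both WT points, a count given without the share of all genes. In Mac most pairs lie close together. In PMN Ctsb stands apart between groups.

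Other lysosomal genes moved in the same cells. Of 99 tested genes on the related lists 26 passed, with 12.1% of all genes called. Of 36 other soluble lysosomal proteins in DC, 14 rose and 1 fell, and the lowest adjusted p belonged to Acp5, an acid phosphatase (log2 change 2.47, limma adjusted p = 0.000188), Pla2g15, a lysosomal phospholipase (2.86, adjusted p = 0.000188), and Grn, progranulin (2.32, adjusted p = 0.000332). The single gene that fell, Gm2a (−0.66, adjusted p = 0.0239), lies outside the naming rule. Of 21 other membrane genes 5 rose and 1 fell, with Slc11a1, a metal ion transporter of phagosomes (2.55, adjusted p = 0.000104), Laptm4a (1.84, adjusted p = 0.000426) and Slc15a3 (2.03, adjusted p = 0.00259) first. Cd68, Sppl2a and the falling Cd63 (−1.26, adjusted p = 0.00278) were named after their values were seen. Of 17 proton pump subunits 2 rose, Atp6v0d1 (0.84, adjusted p = 0.0443) and Tcirg1 (0.74, adjusted p = 0.0451). Among the other cathepsins 1 of 3 tested rose, Ctsa, a carboxypeptidase (1.27, adjusted p = 0.00181). Of 16 sorting and transcription factors tested none passed (limma; 2 at an unadjusted p under 0.05). Of 3 substrates tested, the invariant chain Cd74 fell (−1.25, adjusted p = 0.0107) and Tlr7 rose (1.49, adjusted p = 0.0139).

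The make-up of the cells annotated DC differed between the groups. All 10 macrophage markers were higher in SLE.yaa, their summed level was 882 and 1813 vpm in WT against 17396 and 12960 in SLE.yaa, and C1qb alone went from 108 and 177 to 4442 and 3896. Of 9 conventional dendritic cell markers tested 4 fell, and 4 of the 5 called erythroid markers met the filter only through the SLE.yaa mice. Both tested platelet markers, Pf4 (0, 0, 17.97 and 16.2 vpm) and Ppbp (0, 0, 17.97 and 10.2), met it only through these mice too. The part of these markers in the DC changes was not tested. DC cells with values for 3 or more of the 10 macrophage markers numbered 4, 9, 207 and 214, and those with fewer numbered 73, 65, 53 and 76. The split uses genes that differ between the groups. In the cells with fewer than 3 markers, none of 9 tested genes of the 10 was higher by the test and 1 was lower, Ctsd, at 188 and 102 vpm in WT against 49.2 and 44.5 (log2 change −1.39 ± 0.31, limma adjusted p = 0.0484), with 0.551% of 8534 genes called. Ctsb was at 392 and 404 against 361 and 214 there (−0.50, adjusted p = 0.548), and Lgmn at 109 and 98.1 against 123 and 125 (0.24, adjusted p = 0.873). Ctsl did not reach the filter there (6.59, 0, 24.6 and 0).

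In the DC cells with 3 or more macrophage markers the WT mice had too few cells for a test. Scaled to the sum alone, Ctsb was at 4323, 5014, 4221 and 2663 vpm there, and Lgmn at 589.5, 784.5, 777 and 718. For Ctsb both SLE.yaa mice were below both WT mice, and for Lgmn the groups overlapped. Lamp1 overlapped as well, at 1048, 648, 923 and 732. In both SLE.yaa mice Ctsd (917, 716, 1210 and 1011), Ctsh (65.5, 239, 828 and 921), Ctsl (0, 102, 205 and 148) and Ctss (982, 887, 2009 and 2387) were above both WT mice, and so was Lamp2 (131, 136, 174 and 146). For Ctsz (917, 784.5, 776 and 609) both were below both WT mice, and for Ctsc (655, 1160, 771 and 644) the groups overlapped. All of the WT values rest on 4 and 9 cells.

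**Figure D3:**
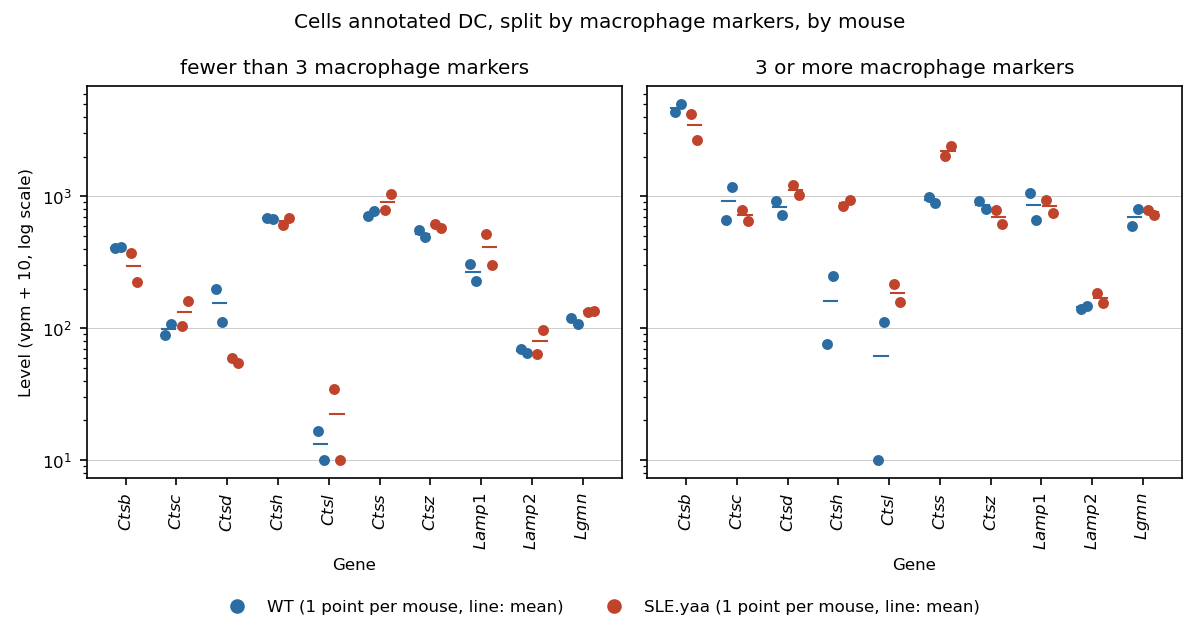
Level of each gene (vpm + 10, log axis) in cells annotated DC, split at 3 of 10 macrophage markers, 1 point per mouse, with a line at the mean of each group. Left, 53 to 76 cells per mouse; right, 4 and 9 WT cells against 207 and 214 SLE.yaa cells. Ctsb and Lgmn differ more between the panels than between the groups within a panel.

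In cells annotated Mac, 2 of 10 genes were higher in SLE.yaa, with 5.73% of all genes called, and the median log2 change was −0.03 against 0.03 over all 7889 genes. Ctsb rose from 1293 and 1454 vpm to 1976 and 1877 (log2 change 0.49 ± 0.12, limma adjusted p = 0.0424). Ctsd rose from 92.2 and 116 to 172 and 166 (0.66 ± 0.14, adjusted p = 0.0281). The other 8 genes, among them the abundant Ctss (1989, 1538, 1579 and 1709; adjusted p = 0.779) and Lamp1 (682, 746, 766 and 677; adjusted p = 0.965), did not pass, with changes from −0.37 for Ctsc (320, 226, 199.9 and 211; adjusted p = 0.220) to 0.21 for Ctsz (422, 378.5, 477.5 and 451; adjusted p = 0.352). Ctsh was at 363, 335, 299 and 308 (adjusted p = 0.385), Ctsl at 37.2, 30.7, 28.0 and 35.8 (0.863), Lamp2 at 191, 159, 169 and 189 (0.927) and Lgmn at 109, 176, 130 and 133 (0.882).

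Both Mac calls depended on the scaling between mice. With scaling to the sum alone Ctsb had a log2 change of 0.30 (limma adjusted p = 0.134) and Ctsd one of 0.48 (adjusted p = 0.0930), and both calls were also lost without either SLE.yaa mouse (adjusted p = 0.176 and 0.170 for Ctsb, 0.167 and 0.199 for Ctsd). The Ctsb call was also lost without WT 1 (adjusted p = 0.0572). Summed monocyte markers were lower in the SLE.yaa Mac cells, at 14986 and 13716 vpm against 22876 and 23059. Cells with a Ly6c2 value, a mark of classical monocytes, numbered 169, 63, 99 and 234, and cells without one 206, 106, 451 and 1251. Within neither set did any of the 10 genes pass (limma; 1 and 2 genes at an unadjusted p under 0.05; 0.326% and 1.1% of genes called). Ctsd was at 100.4, 113, 153 and 149 with Ly6c2 and at 89.9, 122, 172 and 165 without it. Ctsb was at 1031, 984, 1208 and 1230 with Ly6c2 and at 1623, 1836, 2133 and 1974 without it, so that its level differed more between these sets than between the groups within a set. Among the other soluble lysosomal genes in Mac 2 rose, Acp5 (1.53, adjusted p = 0.00466) and Acp2 (0.63, adjusted p = 0.0373), and 3 fell, Npc2 (−0.79, adjusted p = 0.00463), Psap (−0.58, adjusted p = 0.0208) and Scpep1 (−0.65, adjusted p = 0.0449), the latter and Acp2 outside the naming rule. Slc29a3 (−0.80, adjusted p = 0.0424) fell, 1 of 19 membrane genes tested to pass. Cd74 fell here too (−1.72, adjusted p = 0.00466), and Tlr7 rose (0.70, adjusted p = 0.0157). In all, 8 of 91 tested genes on the related lists passed in Mac, with 5.73% of all genes called.

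Neutrophils (PMN) had 1 of 9 tested genes past the test, Ctsb, with 1.9% of all genes called. Ctsb was at 52.4 and 67.2 vpm in WT and at 215 and 219 in SLE.yaa (log2 change 1.71 ± 0.22, limma adjusted p = 0.00533). It had a value in 12.5% and 14.4% of WT neutrophils and in 37.0% and 36.0% of SLE.yaa neutrophils, whose median depths were 1640, 1547, 2368 and 2712 UMIs. Among neutrophils with 2000 to 5000 UMIs, the shares were 14.6% (5.57 to 29.2) and 27.3% (10.7 to 50.2) against 36.9% (26.6 to 48.1) and 28.9% (22.2 to 36.4), with exact Clopper-Pearson 95% intervals that cover counting error only and here overlap. Without either SLE.yaa mouse the Ctsb change of PMN kept its size, at 1.73 and 1.71, and lost its call (adjusted p = 0.319 and 0.677). Ctsc, which activates neutrophil serine proteases, was at 10.2 and 12.2 against 34.7 and 33.8 (1.06 ± 0.28, adjusted p = 0.0734). All 9 tested genes had a positive change over all neutrophils, with a median of 0.50 against 0.03 over all 6518 genes. Among neutrophils with 2000 to 5000 UMIs the changes of Lgmn (−1.80, adjusted p = 0.103) and Ctss (−0.34, adjusted p = 0.634) were negative, and Ctsb (2.12, adjusted p = 0.00826) and Ctsd (1.34, adjusted p = 0.0239) passed. Over all neutrophils Ctsd was at 434, 429.5, 642 and 518 vpm (adjusted p = 0.303), Ctsh at 90.2, 65.1, 108 and 110.5 (0.396), Ctss at 149.9, 91.6, 204 and 234 (0.109), Lamp1 at 105, 144.5, 131 and 161 (0.743), Lamp2 at 115, 99.75, 139 and 175 (0.302), Ctsz at 102, 73.3, 149 and 138 (0.175) and Lgmn at 16.004, 12.2, 22.003 and 13.4 (0.850). Ctsl did not reach the filter (8.73, 4.07, 13.9 and 9.85).

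Markers of other cells in PMN moved in part with the group. Summed macrophage markers were not higher in SLE.yaa (357 and 313 vpm against 404 and 403), and summed monocyte markers were (8236 and 13264 against 6185 and 3817). The macrophage sum rested mostly on Slc40a1, an iron exporter (326, 316, 263 and 169.6). C1qa (0, 0, 5.79 and 4.22), C1qb (0, 0, 6.95 and 7.74), C1qc (0, 0, 9.26 and 2.82) and Cd5l (0, 0, 1.16 and 2.11) had values in the SLE.yaa mice alone, below the filter, and their part in the Ctsb change was not tested. In the neutrophils with no macrophage marker value, 93, 64, 90 and 232 cells, Ctsb was at 58.0 and 51.7 against 213 and 184 (log2 change 1.68, limma adjusted p = 0.0128), and Ctsz passed as well (61.1 and 60.3 against 195 and 149, 1.35, adjusted p = 0.0453). Of 77 genes tested in PMN on the lists of other lysosomal genes, cystatins and substrates, none passed (limma; 13 at an unadjusted p under 0.05).

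CD4 T cells, in which 28.2% of all genes were called, had 5 of 10 lysosomal genes higher and none lower. The median log2 change of the 10 was 0.31, against −0.01 over all 8415 genes. Ctsb rose from 110.0 and 112 vpm to 443 and 425 (log2 change 1.88 ± 0.12, limma adjusted p = 1.73e-08). Lamp2 rose from 23.8 and 23.0 to 56.3 and 57.6 (1.004 ± 0.138, adjusted p = 5.53e-05). Ctss rose from 165 and 160.4 to 242 and 310.5 (0.72 ± 0.13, adjusted p = 0.000836). Ctsz rose from 37.0 and 42.6 to 70.6 and 72.1 (0.71 ± 0.135, adjusted p = 0.000973), and Ctsd from 138 and 141 to 219.7 and 219.9 (0.62 ± 0.12, adjusted p = 0.000967). For all 5 genes both SLE.yaa mice were above both WT mice, a count given without the share of all genes. Lamp1 did not follow Lamp2, with 127 and 133 against 133 and 88.8 (−0.24, adjusted p = 0.291), and Ctsc, Ctsh, Ctsl and Lgmn did not pass, with adjusted p of 0.260, 0.155, 0.992 and 0.216. For Ctsc (log2 change −0.22) and Ctsh (−0.31) both SLE.yaa mice were below both WT mice. All 5 calls held with each mouse left out.

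A Ctsb value was found in 32.2% (29.0 to 35.6) and 34.3% (31.1 to 37.6) of CD4 T cells in WT and in 74.0% (70.4 to 77.4) and 68.0% (63.9 to 71.9) in SLE.yaa, at median depths of 4003, 4407, 4292 and 3660 UMIs. Among cells with 2000 to 5000 UMIs the Ctsb shares were 32.8%, 32.8%, 75.2% and 67.8%. In the B cells of the same libraries the share was 21.6%, 26.7%, 31.2% and 27.6%, at 3218, 3389, 4778 and 4518 UMIs. Free RNA from other cells can give such values. Macrophage markers in CD4 T cells summed to 9.78 and 13.2 vpm in WT and to 65.4 and 58.9 in SLE.yaa. Of the 10 markers only Apoe reached the filter, and it passed the test. In the CD4 T cells without any value for 21 macrophage and monocyte markers, 691, 739, 497 and 404 cells, Ctsb was at 112, 106, 446 and 425.5 (log2 change 1.90, limma adjusted p = 1.54e-09). The same 5 genes passed there and Ctsh fell (−0.70, adjusted p = 0.00482), with 28.3% of all genes called.

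**Figure D4:**
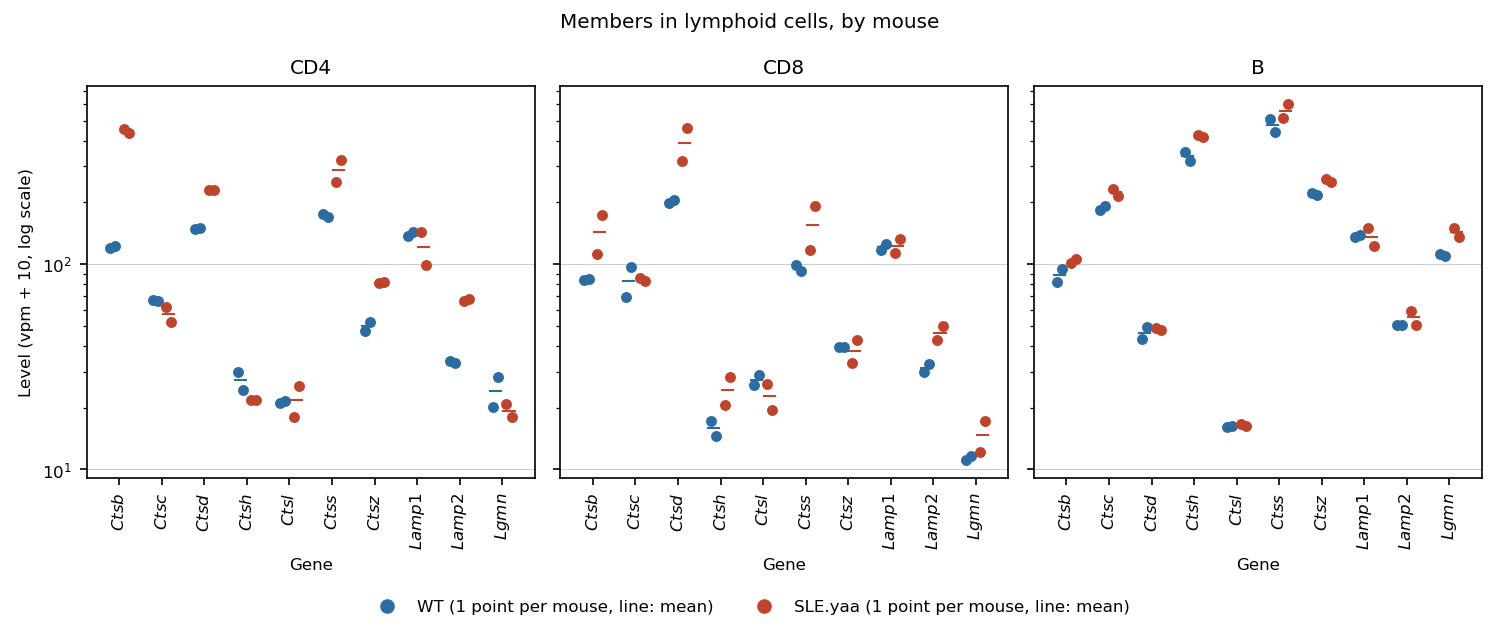
Level of each gene (vpm + 10, log axis) in CD4 and CD8 T cells and B cells, 1 point per mouse, with a line at the mean of each group. Ctsb, Ctsd, Ctss, Ctsz and Lamp2 separate the groups in CD4 T cells; in CD8 T cells Ctsd passes the test; in B cells no gene does.

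Inhibitors of the cysteine cathepsins were higher in CD4 T cells as well. Of these cathepsins Ctsb, Ctss and Ctsz had passed there, and Ctsc, Ctsh and Ctsl had not. Of 4 tested cystatins and stefins, Stfa3 met the filter only through the SLE.yaa mice, and the other 3 were higher. Cst7, cystatin F, which is itself targeted to lysosomes, rose from 40.2 and 36.9 vpm to 251 and 258 (log2 change 2.45, limma adjusted p = 3.13e-09). Cst3, the secreted cystatin C, rose from 94.3 and 81.0 to 285 and 263 (1.54, adjusted p = 3.56e-07). Cstb, the cytosolic cystatin B, rose from 62.9 and 60.5 to 98.0 and 117 (0.71, adjusted p = 0.000879). Stfa3 was listed at 0 in both WT mice and at 18.8 and 17.2 in SLE.yaa. Of 88 tested genes on all the related lists 23 passed in CD4 T cells, where 28.2% of all genes were called. Among 34 other soluble lysosomal genes 3 rose and 4 fell. Grn rose (1.59, adjusted p = 1.03e-06), Npc2, a cholesterol carrier, fell (−0.98, adjusted p = 1.34e-05) and Acp5 fell (−0.85, adjusted p = 0.000115), while Acp2, Dnase2a, Lipa and Neu1 lie outside the naming rule. Of 14 other membrane genes 2 rose (Laptm5 and Tmem106b), of 16 pump subunits 3 rose (Atp6v1f, Atp6v0b and Atp6v0c) and 1 fell (Atp6v0a2, outside the rule). Of 13 sorting and transcription factors 2 rose, Tfe3 (0.63, adjusted p = 0.00457) and M6pr, a mannose 6-phosphate receptor (0.45, adjusted p = 0.0117), and 2 fell, Gga2 and, outside the rule, Gga3. Of 3 substrates tested Gzmb (1.66, adjusted p = 0.00100) and Tlr7 (0.49, adjusted p = 0.0197) rose.

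Cst3 and Cstb were followed in the other types too, and neither passed the test in any of the other 8 types tested alone. Cst3 was at 4504, 4318, 5074 and 5679 vpm in Mac, at 3330.3, 4634, 4482 and 4702 in DC, at 1064, 912, 1049 and 1162 in PMN, and at 226, 233, 208 and 239 in B cells. Cstb was at 581, 331, 267 and 195 in DC (log2 change −0.91, limma adjusted p = 0.0583), at 144, 119, 111 and 114 in Mac and at 157, 110, 99.6 and 148 in PMN. For Cstb both WT mice were above both SLE.yaa mice in DC and in Mac, and the groups overlapped in PMN.

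In CD8 T cells 1 of 9 tested genes passed, with 3.15% of all genes called. Ctsd rose from 188 and 194 vpm to 309 and 451 (log2 change 0.93 ± 0.18, limma adjusted p = 0.0195), a call that was lost without either WT mouse (adjusted p = 0.207 and 0.197). Ctsb was at 73.6 and 75.0 against 101.5 and 164 (0.72 ± 0.20, adjusted p = 0.0895), Lamp2 at 19.8 and 22.6 against 32.9 and 40.0 (0.57, adjusted p = 0.108) and Ctss at 89.55 and 82.5 against 108 and 182 (0.65, adjusted p = 0.147). For these 3 genes both SLE.yaa mice were higher and the test was not passed. Of 88 tested genes on the related lists 5 passed, where 3.15% of all genes were called. Ctsa (0.77, adjusted p = 0.0203), Arsb (1.16, adjusted p = 0.00636), Cd68 (1.46, adjusted p = 0.00469) and Laptm5 (0.63, adjusted p = 0.0358) rose. So did granzyme B, Gzmb, from 10.99 and 5.86 to 100.1 and 211 (3.10, adjusted p = 0.000409). Granzymes are activated by cathepsin C, whose gene Ctsc was at 59.3, 86.7, 75.6 and 72.8 (0.04, adjusted p = 0.945). Ctsh was at 7.14, 4.61, 10.5 and 18.2 (adjusted p = 0.191), Ctsl at 15.9, 18.8, 16.1 and 9.46 (0.553), Ctsz at 29.7, 29.3, 23.1 and 32.8 (0.896) and Lamp1 at 107, 115, 104 and 122 (0.968), and Lgmn did not reach the filter (1.10, 1.67, 2.10 and 7.28).

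CD8 T cells with a value for Ccl5, a chemokine of memory and effector cells, numbered 137, 193, 161 and 301, and those without it 311, 376, 130 and 37, a split chosen after the data had been seen. With Ccl5, 3 of 8 tested genes rose (4.64% of genes called). Ctsb was at 65.2 and 59.96 vpm against 145 and 178 (log2 change 1.23 ± 0.19, limma adjusted p = 0.000192), Ctss at 33.5 and 67.2 against 96.5 and 183 (1.31 ± 0.26, adjusted p = 0.00286), and Ctsd at 257 and 253 against 434 and 498 (0.84 ± 0.16, adjusted p = 0.00243). Without Ccl5 none of 8 passed (limma; 1 gene at an unadjusted p under 0.05; 0.109% of genes called), and Ctsb was at 77.8 and 84.0 against 52.7 and 91.4, with overlap. Whether the change differed between the sets was not tested. Macrophage markers summed to 6.59 and 4.19 vpm in WT and to 20.3 and 80.8 in SLE.yaa over all CD8 T cells. In the cells annotated CD8, Cd4 was at 4.94 and 5.44 vpm in WT against 28.7 and 57.5, and its part in these results was not tested.

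B cells, the most numerous type with 3129, 3403, 2465 and 2453 cells, had none of 9 tested genes past the test (limma; 4 at an unadjusted p under 0.05), with 4.11% of all genes called. Ctsl did not reach the filter of 10 vpm. The median log2 change of the 9 genes was 0.23 against −0.01 over all 7948 genes, and 8 of 9 changes were positive. Lgmn came nearest, with 103 and 99.8 vpm against 139.5 and 126 (log2 change 0.36 ± 0.10, adjusted p = 0.0935), then Ctsh with 341 and 308 against 417 and 406 (0.33 ± 0.11, adjusted p = 0.175) and Ctsc with 173 and 181 against 221 and 206 (0.26 ± 0.10, adjusted p = 0.297). Both SLE.yaa mice stood above both WT mice for 8 of the 10 genes, these 3 among them, and the groups overlapped for 2. The share of all genes that separate so is not given. Without scaling between mice 6 of the 9 genes passed, all higher. Of all genes 1069 of 7950 passed then, and their median stood at 0.21. Ctss, which cuts the invariant chain in B cells, was at 501 and 431 against 506 and 594 (0.23, adjusted p = 0.528). Ctsb was at 72.1, 84.3, 91.7 and 95.9 (adjusted p = 0.361), Ctsd at 33.4, 39.3, 38.9 and 37.6 (0.866), Ctsz at 212, 206, 249 and 242 (0.400), Lamp1 at 125, 129, 140.3 and 112 (0.973) and Lamp2 at 40.6, 40.3, 49.25 and 40.8 (0.710). Of 83 tested genes on the related lists 3 passed, where 4.11% of all genes were called. These were Tmem106b (0.75, adjusted p = 0.00363), Npc2 (0.51, adjusted p = 0.0355) and Tlr7 (1.16, adjusted p = 0.000208), all higher.

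B-ISG cells (59, 123, 47 and 81 cells) had none of 9 genes past the test (limma; 1 at an unadjusted p under 0.05), with 0.88% of all genes called. The gene with the lowest p was Lgmn, at 72.1 and 65.9 vpm against 116 and 137 (log2 change 0.78 ± 0.28, adjusted p = 0.314). Lamp2 was lower in both SLE.yaa mice, at 62.5 and 65.9 against 44.5 and 44.6 (−0.44, adjusted p = 0.802). B-early cells (262, 244, 100 and 170 cells) had none of 9 past the test (limma; 0 at an unadjusted p under 0.05), with 0.437% of all genes called, and changes from −0.34 for Ctsh to 0.56 for Lgmn. The Lgmn value of B-early cells came from 1 mouse, with 49.1, 54.8, 123 and 52.4. Summed plasma cell markers in B-early cells were at 571, 511, 13362 and 1236 vpm, and their part in it was not tested.

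NK cells (119, 117, 50 and 46 cells) had the highest WT Ctsd of the tested types, and it did not pass the test, at 950 and 829 vpm against 751 and 862 (log2 change −0.14, limma adjusted p = 0.934). None of 7 tested genes passed (1 at an unadjusted p under 0.05), with 0.0967% of all genes called. Ctss was at 42.9 and 36.2 against 68.2 and 129 (1.08 ± 0.33, adjusted p = 0.550). Summed T cell markers in NK cells were at 688 and 584 vpm against 1096 and 1167, and their part was not tested. Ctsc, which serves the granzymes of NK cells, was at 205, 213, 188 and 188 (−0.15, adjusted p = 0.934). Ctsh, Ctsl and Lgmn did not reach the filter there.

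**Figure D5:**
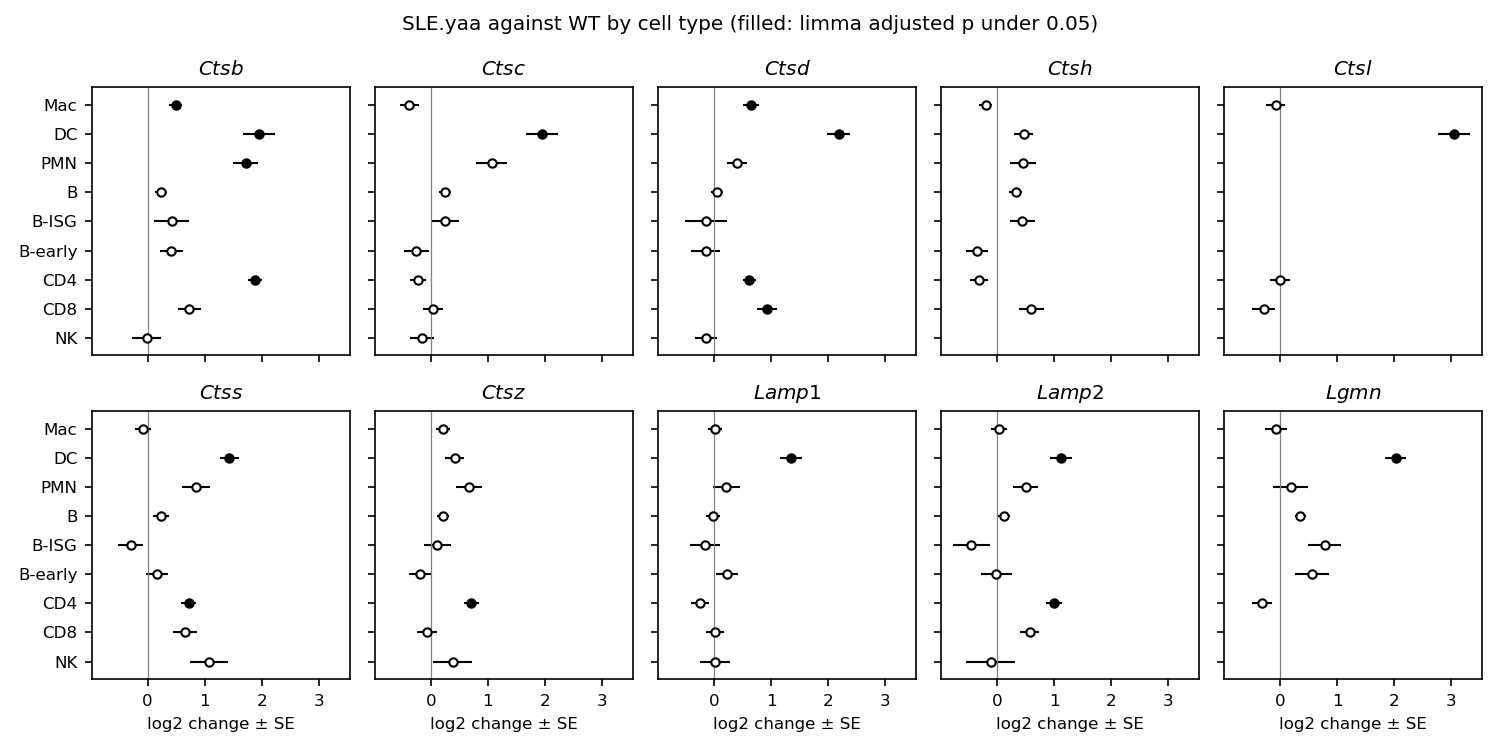
Log2 change of each gene (1 panel each), SLE.yaa minus WT on log2(vpm + 10), with its standard error, in the 9 tested cell types; n = 2 mice per group. Filled points have a limma adjusted p under 0.05, and a missing point marks a gene below the filter. Ctsb is filled in DC, PMN, CD4 and Mac, and Lamp2 in DC and CD4.

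Whether the change itself differed between types was tested on differences within each mouse for 3 pairs of types. Between DC and Mac 9 of 10 genes had a higher change in DC, with 7.76% of all genes called in that test. Ctsz alone did not pass (difference 0.21 ± 0.17, limma adjusted p = 0.540). Between B cells and Mac 3 of 9 passed, with 8.64% of genes called, and 6 did not, Ctsb among them (−0.25, adjusted p = 0.220). Between CD4 and CD8 T cells 3 of 9 passed, with 11.7% of genes called. Ctsd did not (−0.31 ± 0.14, adjusted p = 0.175), nor did Ctss (0.07, adjusted p = 0.841) or Lamp2 (0.43, adjusted p = 0.162).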

How the data were processed

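The authors' deposited table holds, per the file headers, 1 value per gene and cell, natural log values (ln) of 1 plus a depth-adjusted quantity. Undoing the log gave whole numbers (within 1.64e-11) that sum to 2663 to 6382 per cell, so the values are not raw counts and no count model was used. The method of that adjustment is not stated in the labels or headers. The deposited cell table gives the authors' UMI count per cell (1002 to 26847), the percent of mitochondrial counts (at most 5.00) and the authors' cell types. Cell Ranger 5.0.0, Seurat 4.0.0 and the build GRCm38 are listed per the submitters' processing notes. No doublet caller was run here, and 15 rows without a gene name (0.0440% of values) were left out.

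Values were averaged per mouse and type, scaled to 1000000 and by TMM factors (edgeR 4.0.16), and log2(vpm + 10) was tested with limma 3.58.1 (trend) in R 4.3.3, for genes that reached 10 vpm in 2 or more mice, with Benjamini-Hochberg adjustment over all genes of a type. Acp2 (whole spleen and CD4), Pla2g15 (whole spleen), Gzmb, Tlr7 and Stfa3 (CD4) and Cd68 (CD8) reached that filter only in SLE.yaa mice, so a difference there follows in part from the filter. The scripts were tested on simulated data. Differences between types used within-mouse differences. With 2 mice per group, p-values rest on the spread between these mice, which limma moderates with the spread of other genes of like level. The alternatives were other scalings, pseudocounts, filters and cell subsets, and each mouse left out. The rule for named genes took all 10 genes in each type (in the smaller types B-ISG, B-early and NK some stand only in the counts), and up to 3 called genes per related list, those with the smallest adjusted p, together with Cst3 and Cstb. A comparison of CD4 T cell subsets is not reported here. Members and lists were chosen with earlier results of these data known. Taken alone, the means over all cells of the spleen do not tell fewer cells of a kind from less RNA per cell.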

Additional observations from a re-analysis of the deposited data

Results flagged for a closer look

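Each value here is a difference between cell types in the change from WT to SLE.yaa that passed limma's test of the difference itself (n = 2 mice per group). Between DC and Mac the change was higher in DC by 1.46 (log2) for Ctsb, 2.32 for Ctsc, 1.53 for Ctsd, 0.66 for Ctsh, 3.12 for Ctsl, 1.52 for Ctss, 1.33 for Lamp1, 1.09 for Lamp2 and 2.09 for Lgmn. The limma adjusted p of these 9 ran from 0.000243 for Lgmn to 0.0372 for Ctsh. Without SLE.yaa 1 Lamp2 (0.94, adjusted p = 0.167) and Ctsh (0.73, adjusted p = 0.253) did not pass, nor did Ctsh without SLE.yaa 2 (0.59, adjusted p = 0.423). All 10 macrophage markers were higher in the SLE.yaa DC, and none of the 4 tested passed in Mac (limma); their part in these differences was not tested.

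Between B cells and Mac the change was higher in B cells for Ctsc by 0.63 (limma adjusted p = 0.0279) and for Ctsh by 0.53 (adjusted p = 0.0110), and for Ctsd the difference B minus Mac was −0.59 (adjusted p = 0.0198). Ctsc did not pass without WT 1 (0.37, adjusted p = 0.0892), nor Ctsd without SLE.yaa 1 (adjusted p = 0.105), without SLE.yaa 2 (adjusted p = 0.102) or with sum scaling (−0.46, adjusted p = 0.0748). Between CD4 and CD8 T cells the difference CD4 minus CD8 was 1.15 for Ctsb (adjusted p = 8.64e-06), 0.78 for Ctsz (adjusted p = 0.00435) and −0.91 for Ctsh (adjusted p = 0.00775). Without WT 1 Ctsz (0.68, adjusted p = 0.104) and Ctsh (−0.89, adjusted p = 0.0948) did not pass, nor did Ctsh without WT 2 (−0.94, adjusted p = 0.0572).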

How the results depend on the processing

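Of 23 called changes of the 10 genes, 284 values under alternatives were computed, and 230 of them kept call and direction. Of 69 uncalled changes, 45 of 804 values passed. The sign differed in 86 of all 1088. In DC cells with fewer than 3 macrophage markers Ctsb turned to −0.50 and Ctsd to −1.39, and in the whole spleen Lamp1 turned to −0.059 at a common composition and to −0.024 without Mac, DC, PMN and plasma cells. Over all genes of the whole spleen, 672 of 8544 passed, against 1539 of 8526 without scaling and 1072 of 8544 from means of the ln values. With median-of-ratios scaling 613 of 8538 passed there, at 2000 to 5000 UMIs 893 of 8198 and without the filter 983 of 16094. In B cells 327 of 7948 passed, against 1069 of 7950 without scaling and 867 of 7948 from ln means. In B-ISG 67 of 7611 passed, against 220 of 7863 and 179 of 7611. The number of the 10 genes past the test moved as follows. In the whole spleen 6 became 10 without scaling, 9 from means of the ln values, 4 with median-of-ratios scaling, 7 at 2000 to 5000 UMIs, 3 without the filter, 3 at a common composition, 2 without Mac, DC, PMN and plasma cells, and 2 to 8 with a mouse left out. In B cells 0 became 6 without scaling, 5 from means of the ln values and 0 to 1 with a mouse left out, and in B-ISG 2 and 2 under the first 2 of these. In CD8 T cells 1 became 3 without scaling, 0 without the filter, 2 at 2000 to 5000 UMIs, 2 from ln means, 3 with and 0 without Ccl5, and 0 to 4 with a mouse left out. In Mac 2 became 0 with sum scaling, 0 without scaling, 0 without the filter, 1 at 2000 to 5000 UMIs, 1 from ln means, 0 with and 0 without Ly6c2, and 0 to 3 with a mouse left out. In PMN 1 became 2 at 2000 to 5000 UMIs, 2 from ln means, 2 without macrophage markers and 0 to 2 with a mouse left out. In DC the 8 higher genes became 7 at 2000 to 5000 UMIs, with 3.9% of all genes called. With fewer than 3 macrophage markers none was higher in DC and 1 was lower, with 0.551% of all genes called. The difference CD4 minus CD8 had 3, and 1 to 5 with a mouse left out. At 2000 to 5000 UMIs 5.6% of all tested genes were called in CD8, 1.29% in Mac and 4.76% in PMN. The CD4, CD8 and PMN subsets were chosen after seeing the data. The cause was not tested for any of these.

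Without scaling the median of all genes stood at 0.16 in the whole spleen and in CD4, 0.21 in B, 0.26 in B-ISG, 0.14 in B-early and 0.10 in PMN, and with sum scaling at −0.10 in CD8, −0.12 in Mac, −0.11 in NK and −0.14 in PMN. Over all alternatives the genes past the test numbered 457 to 1736 in the whole spleen, 119 to 1069 in B, 0 to 220 in B-ISG, 0 to 73 in B-early, 1399 to 2620 in CD4, 9 to 1753 in CD8, 47 to 2077 in DC, 27 to 1646 in Mac, 0 to 16 in NK and 0 to 429 in PMN. With 1 mouse left in a group, it is assumed to vary like the other group. No paired analysis was possible because the labels do not pair WT with SLE.yaa mice and the replicate numbers follow only the order of the samples.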

Other observations

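Plasma cells, pDC and basophils were too few in some mice for a test, and their levels are scaled to the sum alone. Plasma cells numbered 12, 11, 340 and 287. Ctss was at 1066, 1024, 395.5 and 389 vpm in them, Lamp1 at 194, 299, 61.2 and 28.5, and Lamp2 at 58.1, 64.0, 125 and 110.2. Both WT mice stood above both SLE.yaa mice for Ctss and Lamp1 and below them for Lamp2. Ctsb, at 310.0, 319.9, 469.5 and 314, overlapped between the groups.

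In pDC (13, 8, 2 and 13 cells) Ctsl, low in all 9 tested types of WT mice, was at 1857, 1471, 1839 and 715 vpm, and Ctsb at 1911, 1912, 2299 and 1902. In basophils (6, 6, 5 and 9 cells) Ctsd was at 1211, 1444, 1517 and 1493. The number of the 10 genes with a value per cell averaged 5.16, 4.43, 7.28 and 6.78 in DC and 1.83, 1.87, 3.04 and 2.83 in PMN, against 6.28, 6.24, 5.97 and 5.70 in Mac. Median depths were 5314, 4855.5, 4790 and 4348 UMIs in DC and 4308, 4535, 3515 and 3149 in Mac. Of DC cells, 0%, 0%, 13.8% and 7.59% had a value for all 10.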
